A study of Mus musculus with 27 samples.

Results

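The genes examined were the axon guidance ligands and receptors in a count table of mouse embryonic stem cells, neural progenitors and cortical neurons, each separated into chromatin, nucleoplasm and cytoplasm. Members were chosen by symbol alone: protein-coding genes named in GENCODE vM21 as class 3 to class 7 semaphorins, neuropilins, plexins, ephrins, Eph receptors, netrins, Dcc and Unc5 netrin receptors, Slits or Robos. There were 68 members among the 37332 genes of the table. The 34 ligands comprised 20 semaphorins, 8 ephrins, 3 netrins and 3 Slits. The 34 receptors comprised 14 Eph receptors, 9 plexins, 5 netrin receptors, 4 Robos and 2 neuropilins. Ntn3 was not analysed here. No measured value entered this rule, although the members were chosen with earlier results of these data known.

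The mESC group was the E14 embryonic stem cell line, grown with LIF on gelatin. The mNPC group was a neural progenitor line established in the submitters' laboratory and grown with EGF and FGF. The mCtx group was a primary culture of cortical neurons kept for 5 days. Each cell type gave chromatin-associated (Chr), nucleoplasmic (Nuc) and cytoplasmic (Cyto) RNA in 3 biological replicates, so there were 27 libraries in 9 groups. The labels name no mutation and no drug in any group. The stem cells and the progenitors each represent 1 line, and the strain, age and number of the animals behind the neurons are not given in the sources used here. The cell types were not sampled as a time course, so a rise or a step between them below means a difference between these cultures.

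Axon guidance cues are secreted or membrane-bound proteins that attract or repel a growing axon tip. Semaphorins act through plexins, with neuropilins as co-receptors for most secreted class 3 members. Ephrins and Eph receptors signal between touching cells, A-type ephrins through a lipid anchor and B-type ephrins through a transmembrane protein. Netrin attracts axons through Dcc and repels them through Unc5 receptors, and Slits repel axons through Robos. Many of these genes also act outside axons, in cell sorting, migration, vessel growth and glia.

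Each level below is in CPM, the count of a gene relative to the total of its TMM-scaled library, and each count covers the whole gene from first to last base, introns included. CPM values are therefore compared between libraries for 1 gene, and levels of different genes are compared only by the authors' TPM, a relative transcript level per length. A gene was called higher or lower when its edgeR adjusted p was under 0.05, and 18249 genes were tested, among them all 68 members. Libraries held 11249862 to 19871198 counts. Fold changes and CPM are relative to the rest of a library, so they do not give amounts of RNA per cell or per fraction. In these bulk samples, fewer cells of a type and less RNA per cell cannot be told apart.

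The labels were checked against marker genes. The 8 stem cell markers summed to 3913 to 4469 CPM in mESC cytoplasm and to at most 9.50 CPM in cytoplasm of the other cell types, with Pou5f1 at 0 there. The 8 progenitor markers summed to 3269 to 3859 CPM in mNPC cytoplasm, and the 11 neuron markers to 6389 to 6977 CPM in mCtx cytoplasm. These neuron markers also summed to 616 to 769 CPM in mNPC cytoplasm and to 1803 to 2127 CPM on mNPC chromatin. In mESC cytoplasm they summed to 326 to 331 CPM. Markers listed for other cell types were also read, and whether other cells or the named cells expressed them was not tested. The mNPC cytoplasm held 5 oligodendrocyte lineage markers at a summed 115 to 156 CPM and 5 astrocyte markers at 799 to 1051 CPM. The mCtx cytoplasm held the progenitor markers at 709.9 to 873 CPM and the astrocyte markers at 262 to 284 CPM. Actb, Gapdh and Eef1a1 together rose from at most 1258 CPM in any chromatin library to at least 10543 CPM in any cytoplasmic library. Malat1, Neat1 and Meg3, RNAs known to be kept in the nucleus, together had 4832 to 8844 CPM on chromatin against 1298 to 1601 in the cytoplasm of mESC. In mNPC these sums were 20805 to 21674 against 1316 to 1407 CPM. In mCtx they were 8594 to 10282 against 5119.6 to 7029.6 CPM, the smallest ratio of the cell types.

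In the cytoplasm, most guidance genes were highest in neurons. Of the 68 members, 48 were higher and 7 lower in mCtx than in mNPC, where 32.6% of all genes tested were higher and 33.4% lower. Against mESC, 51 members were higher and 13 lower in mCtx, with a background of 40.1% and 41.6%. Between mNPC and mESC, 38 members were higher and 21 lower in mNPC, against 36.5% and 39.4% of all genes. The median log2 fold change of the members was 2.67 in mCtx over mNPC, 4.09 in mCtx over mESC and 0.81 in mNPC over mESC, while the medians of all genes were 0.00, -0.05 and -0.07. The same libraries serve in more than 1 of these comparisons. A total of 44 members passed as higher in mCtx than in both other cell types, 8 passed as highest in mESC and 5 as highest in mNPC. The share of all genes passing such joint calls is not given here, nor for the joint sets on chromatin below.

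**Figure D1:**
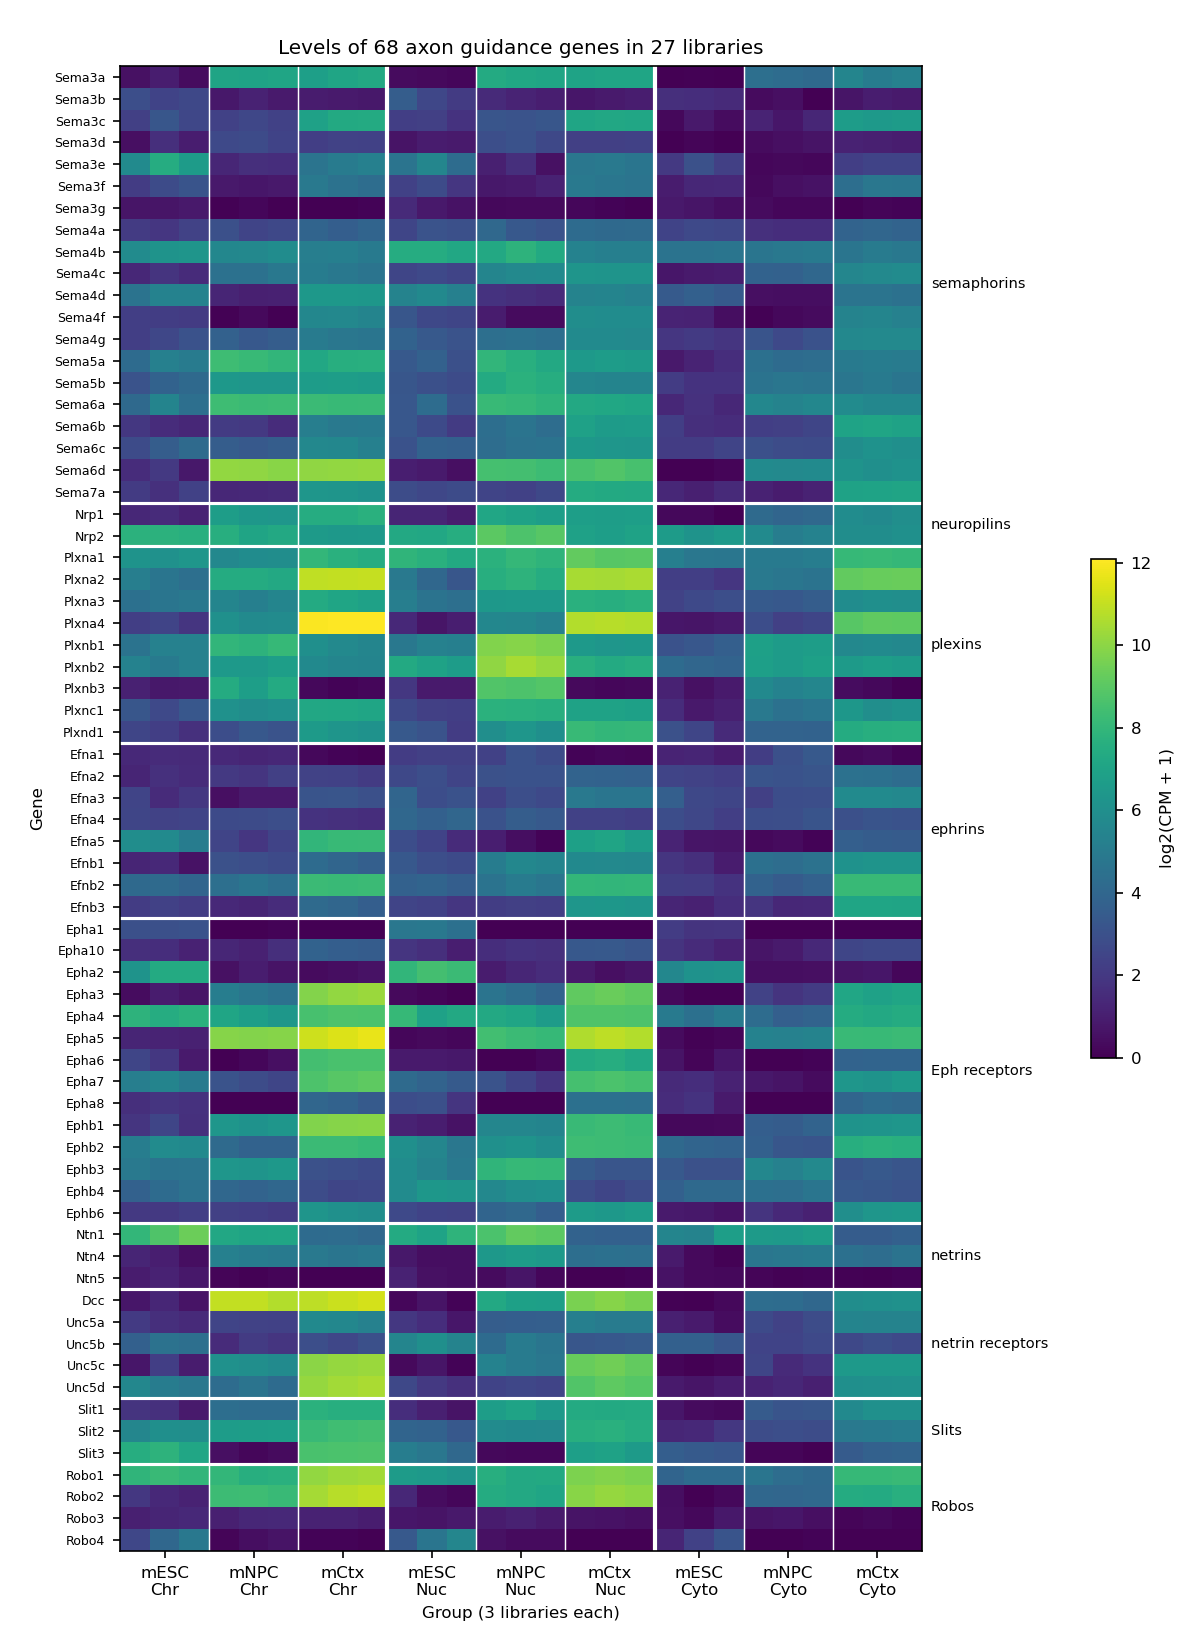
Heat map of log2(CPM + 1) for the 68 members (rows, by family) in 27 libraries (columns, 3 for each group, chromatin on the left, nucleoplasm in the middle and cytoplasm on the right). Most rows are brightest in the mCtx columns, 8 members passed as highest in mESC cytoplasm, and many rows fade from chromatin to cytoplasm.

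The 8 members highest in stem cells were Epha1, Epha2, Robo4, Unc5b, Ntn5, Nrp2, Sema3b and Sema3g. Epha2, a receptor for A-type ephrins, was read at 48.03, 71.3 and 75.6 CPM in mESC against 0.368, 0.377 and 0.432 in mNPC and against 0.563, 0.657 and 0.157 in mCtx. The mESC values lay far above all others, and mNPC and mCtx overlapped. Epha2 was lower in mNPC than in mESC (log2 fold change -7.35, SE 0.37, edgeR adjusted p = 1.11e-15) and lower in mCtx than in mESC (-7.05, SE 0.36, edgeR adjusted p = 1.13e-15). Per length, Epha2 also had the highest mean among the members in mESC cytoplasm, at 9.07 ± 2.34 TPM (SD, n = 3), followed by Nrp2 at 6.51 ± 0.936 TPM. These levels of Epha2 and Nrp2 lay within about their spread of each other. Epha1, another receptor for A-type ephrins, gave 3.50, 2.56 and 2.60 CPM in mESC and no count in any mNPC or mCtx cytoplasmic library. It was at least 16.2-fold lower in mNPC and at least 14.4-fold lower in mCtx, taking 3 counts per library as the floor, and Zyx overlaps 29.3% of its span on the opposite strand together with another gene.

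The promoters of Epha2, Plxnb3 and Epha5 are shown as those of 1 gene each with its highest level in stem cells, progenitors and neurons. Each is the RefSeq sequence of 250 bases before to 50 bases after the gene start (GRCm38.p6), written along the gene's own strand, with capitals marking the GC box GGGCGG on either strand.
Epha2, chr4:141300971-141301270, plus strand: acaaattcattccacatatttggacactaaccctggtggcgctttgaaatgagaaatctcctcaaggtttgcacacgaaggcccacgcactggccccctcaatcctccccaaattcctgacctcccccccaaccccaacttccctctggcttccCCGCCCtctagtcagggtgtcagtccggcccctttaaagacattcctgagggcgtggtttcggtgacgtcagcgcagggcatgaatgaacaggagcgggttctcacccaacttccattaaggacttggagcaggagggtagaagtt
Plxnb3, chrX:73756853-73757152, plus strand: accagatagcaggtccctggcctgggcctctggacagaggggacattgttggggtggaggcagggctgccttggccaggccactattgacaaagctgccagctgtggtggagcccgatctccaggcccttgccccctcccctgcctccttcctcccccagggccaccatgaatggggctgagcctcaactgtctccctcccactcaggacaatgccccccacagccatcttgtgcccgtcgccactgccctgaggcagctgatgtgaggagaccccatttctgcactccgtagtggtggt
Epha5, chr5:84417333-84417632, minus strand: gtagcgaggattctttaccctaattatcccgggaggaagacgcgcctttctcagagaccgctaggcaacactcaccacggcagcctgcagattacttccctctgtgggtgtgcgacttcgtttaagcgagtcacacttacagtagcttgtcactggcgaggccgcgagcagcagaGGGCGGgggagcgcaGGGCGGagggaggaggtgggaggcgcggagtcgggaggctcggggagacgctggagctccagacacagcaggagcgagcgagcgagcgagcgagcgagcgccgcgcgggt
A RefSeq promoter was matched for 58 of the 68 members, giving 74 entries. The GC box was in 52 of them (70.3%), and in 35.7% of all 32851 promoters. TATAAA was in 2 (2.70%, all promoters 13.6%), CANNTG in 38 (51.4%, all promoters 72.3%), and ATGCAAAT, the octamer bound by Pou5f1, in 0 (all promoters 1.74%). The median entry of the members held 19.5 CG pairs, that of all promoters 7. These are letter matches in fixed windows and were not tested as binding sites, and matches of different motifs may overlap.

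Nrp2, the neuropilin that pairs with plexins to receive class 3 semaphorins, was present in every cell type. Its cytoplasmic levels were 99.1, 73.1 and 89.2 CPM in mESC against 54.8, 34.4 and 40.03 in mNPC and against 59.6, 59.4 and 65.04 in mCtx. The lowest mESC library stood above every mNPC and mCtx library. Nrp2 was lower in mNPC than in mESC (log2 fold change -1.02, SE 0.15, edgeR adjusted p = 1.2e-06) and lower in mCtx than in mESC (-0.51, SE 0.15, edgeR adjusted p = 0.00334), while mCtx exceeded mNPC (0.51, SE 0.15, edgeR adjusted p = 0.00467). The mCtx against mESC call was lost with total counts (log2 fold change -0.27), and the mCtx against mNPC call without mNPC cytoplasm replicate 2 (log2 fold change 0.36). Nrp1, the partner for Sema3a, followed another order, with 0.215, 0.178 and 0 CPM in mESC against 17.1, 14.1 and 16.2 in mNPC and against 57.5, 52.8 and 62.7 in mCtx. The 3 cell types did not overlap for Nrp1, and its log2 fold change was 6.79, SE 0.28, edgeR adjusted p = 2.58e-17 in mNPC over mESC and 1.87, SE 0.15, edgeR adjusted p = 1.81e-11 in mCtx over mNPC.

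Robo4, a Robo best known from endothelium, was read at 1.40, 4.10 and 7.87 CPM in mESC cytoplasm, with a wide spread between replicates. It had 1 count in all mNPC cytoplasm and none in mCtx cytoplasm, so that it was 223-fold lower, with a 95% counting interval of 39.6 to 8851 in mNPC and at least 22.2-fold lower in mCtx. Of the endothelial markers in mESC cytoplasm, Pecam1 was at 40.96 CPM, Tek at 3.88 CPM and Cdh5 at 0.0737 CPM, and 5 such markers summed to 37.1 to 57.1 CPM. Their part in the Robo4 level was not tested. Unc5b, a netrin receptor, was at 11.95, 11.95 and 8.84 CPM in mESC against 4.36, 4.48 and 5.33 in mNPC and against 5.06, 6.39 and 5.40 in mCtx. It was lower in mNPC than in mESC (log2 fold change -1.22, SE 0.24, edgeR adjusted p = 7.51e-05) but did not pass between mCtx and mNPC (0.26, SE 0.26, edgeR adjusted p = 0.386). The other 3 members highest in mESC were low everywhere: Sema3b averaged 1.90 ± 0.183, Sema3g 0.571 ± 0.196 and Ntn5 0.301 ± 0.161 CPM (SD, n = 3), and 98.5% of the Ntn5 span is overlapped on the opposite strand, where the strand used in counting is not given.

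The 5 members highest in progenitors were Plxnb1, Plxnb3, Ephb3, Ephb4 and Efna1. Plxnb3, a plexin that binds Sema5a, was read in the cytoplasm at 1.24, 0.476 and 0.848 CPM in mESC against 52.5, 39.5 and 45.4 in mNPC and against 0.313, 0.179 and 0 in mCtx. Only the mNPC libraries were above 2 CPM. The log2 fold change was 5.71, SE 0.32, edgeR adjusted p = 8.67e-15 in mNPC over mESC and -7.97, SE 0.41, edgeR adjusted p = 2.26e-15 in mCtx over mNPC. Oligodendrocyte lineage markers were present in the same mNPC cytoplasm, Pdgfra at 52.5 and Cspg4 at 41.6 CPM, and their part in the Plxnb3 level was not tested. Plxnb1, the receptor for Sema4d, was at 9.18 ± 2.23 CPM in mESC, 106 ± 7.51 in mNPC and 50.2 ± 2.94 in mCtx (mean ± SD, n = 3). It rose from mESC to mNPC (log2 fold change 3.53, SE 0.19, edgeR adjusted p = 5.84e-15) and was lower in mCtx than in mNPC (-1.07, SE 0.17, edgeR adjusted p = 4.21e-06).

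Ephb3 and Ephb4, receptors for B-type ephrins, also peaked in progenitors. Ephb3 was at 9.26, 7.02 and 6.96 CPM in mESC against 47.3, 38.9 and 50.3 in mNPC and against 7.88, 9.38 and 8.06 in mCtx, and mESC and mCtx overlapped. Its log2 fold change was 2.55, SE 0.19, edgeR adjusted p = 2.68e-12 in mNPC over mESC and -2.43, SE 0.19, edgeR adjusted p = 1.07e-11 in mCtx over mNPC. Ephb4, a receptor for ephrin B2, varied less, at 12.01, 16.3 and 16.5 CPM in mESC against 20.9, 20.01 and 24.7 in mNPC and against 9.06, 8.54 and 7.51 in mCtx, and was lower in mCtx than in mNPC (log2 fold change -1.38, SE 0.19, edgeR adjusted p = 2.83e-07). Efna1, a lipid-anchored ephrin, was at 1.29, 1.37 and 0.908 CPM in mESC against 3.63, 6.69 and 9.50 in mNPC and against 0.188, 0.299 and 0.0783 in mCtx. It rose from mESC to mNPC (log2 fold change 2.45, SE 0.32, edgeR adjusted p = 1.35e-07) and was lower in mCtx (-5.01, SE 0.42, edgeR adjusted p = 5.49e-11).

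**Figure D2:**
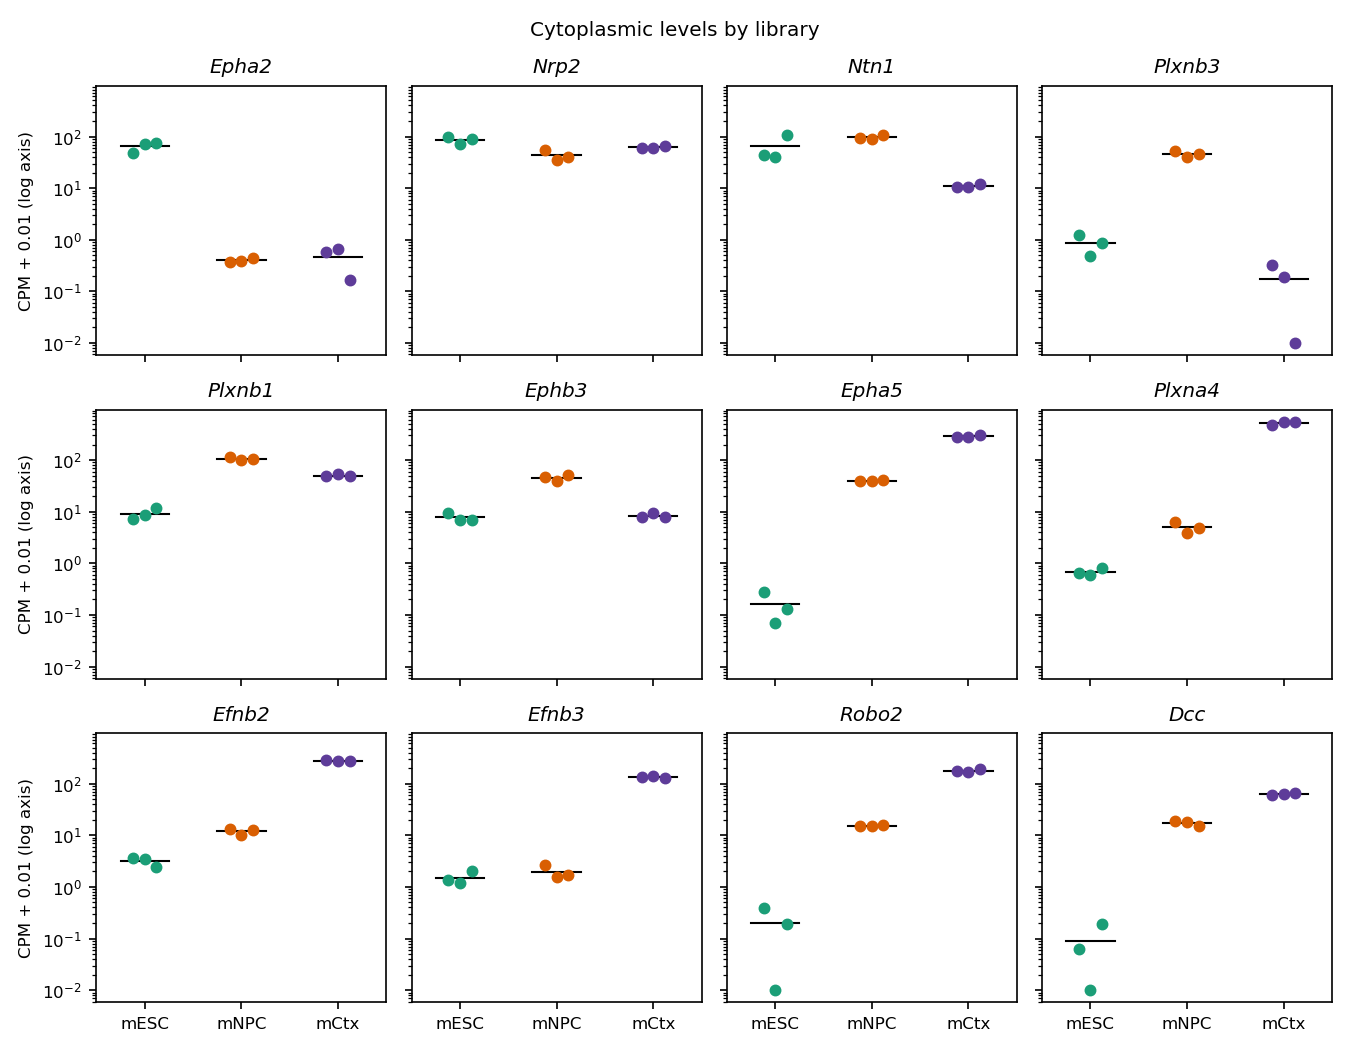
Cytoplasmic CPM plus 0.01 on a log axis for 12 members, with 1 point per library and a bar at the mean of the 3 libraries of each cell type. Epha2 and Nrp2 are highest in mESC, Plxnb3, Plxnb1 and Ephb3 in mNPC, and the members from Epha5 onward in mCtx.

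Among ligands, most semaphorins were higher in neurons. In mCtx over mNPC cytoplasm, 15 of 20 were higher and 0 lower. Sema3c, a secreted class 3 member, was at 0.215, 0.773 and 0.303 CPM in mESC against 1.31, 0.647 and 1.44 in mNPC and against 102, 90.7 and 97.8 in mCtx, and Sema4f, a transmembrane member, at 1.29, 1.25 and 0.363 CPM in mESC against 0.0526, 0.216 and 0.288 in mNPC and against 41.2, 44.7 and 39.3 in mCtx. For both genes, the lowest mCtx library was well above every other library. The log2 fold change in mCtx over mNPC was 6.43, SE 0.27, edgeR adjusted p = 6.62e-17 for Sema3c and 7.83, SE 0.37, edgeR adjusted p = 5.47e-16 for Sema4f. Sema7a, a lipid-anchored member, averaged 1.12 ± 0.173 CPM in mNPC and 128 ± 5.34 in mCtx (log2 fold change 6.84, SE 0.18, edgeR adjusted p = 1.58e-20). By TPM, Sema7a led the semaphorins in mCtx cytoplasm at 13.4 ± 0.441, followed by Sema6b at 11.4 ± 1.06 and Sema6c at 10.6 ± 1.84 (SD, n = 3). Sema6b and Sema6c lay within their spread of each other.

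A second set of semaphorins was higher in progenitors than in stem cells. Sema3a, the classical secreted repellent, had 1 count in all mESC cytoplasm, 20.6, 18.4 and 16.6 CPM in mNPC and 44.3, 32.7 and 38.7 in mCtx. It was 972-fold higher, with a 95% counting interval of 174 to 38439 in mNPC than in mESC, and mCtx exceeded mNPC (log2 fold change 1.05, SE 0.16, edgeR adjusted p = 1.4e-06). Sema6d, a transmembrane ligand of plexin A1, had 2 counts in mESC, then 54.6, 50.5 and 53.998 CPM in mNPC and 72.4, 64.9 and 70.3 in mCtx. The mNPC and mCtx libraries did not differ past the threshold (log2 fold change 0.38, SE 0.20, edgeR adjusted p = 0.09), although DESeq2 called a difference of 0.41. Sema6a, a transmembrane ligand of plexins A2 and A4, behaved in the same way, with 1.51, 2.26 and 1.57 CPM in mESC against 46.99, 41.5 and 46.7 in mNPC and against 56.2, 46.8 and 46.7 in mCtx. Its log2 fold change was 4.66, SE 0.33, edgeR adjusted p = 1.37e-12 in mNPC over mESC and 0.15, SE 0.25, edgeR adjusted p = 0.63 in mCtx over mNPC, which did not pass. Sema5a, a ligand of plexin B3, was at 0.754, 1.31 and 1.9984 CPM in mESC against 20.9, 17.8 and 18.7 in mNPC and against 29.1, 32.2 and 31.9 in mCtx and rose at both steps (log2 fold change 3.83, SE 0.30, edgeR adjusted p = 8.67e-12, then 0.70, SE 0.23, edgeR adjusted p = 0.00857).

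Of the other semaphorins, Sema4d, Sema3e and Sema4a were lowest in progenitors, while Sema6c and Sema3d were lowest in stem cells. Sema4d, the ligand of plexin B1, was at 9.69, 12.1 and 9.63 CPM in mESC against 0.420, 0.377 and 0.360 in mNPC and against 23.9, 23.9 and 21.99 in mCtx. Every mNPC library was below every other library. Sema4d was lower in mNPC than in mESC (log2 fold change -4.72, SE 0.26, edgeR adjusted p = 5.46e-15) and higher in mCtx than in mNPC (5.88, SE 0.25, edgeR adjusted p = 4.74e-17). Sema3e, a ligand of plexin D1, averaged 4.69 ± 2.11 CPM in mESC, 0.172 ± 0.0381 in mNPC and 4.18 ± 0.431 in mCtx. Sema4a, a transmembrane member, was at 4.47, 5.29 and 5.03 CPM in mESC against 2.21, 1.9952 and 1.94 in mNPC and against 13.3, 14.8 and 13.4 in mCtx (log2 fold change 2.75, SE 0.24, edgeR adjusted p = 1.69e-10 in mCtx over mNPC). Sema6c, another transmembrane member, was at 3.39, 3.45 and 4.54 CPM in mESC against 6.73, 5.99 and 5.83 in mNPC and against 59.6, 69.6 and 64.8 in mCtx (log2 fold change 3.38, SE 0.25, edgeR adjusted p = 3.01e-12 in mCtx over mNPC), and Sema3d, a secreted member, stayed near or below 1 CPM at 0, 0.119 and 0 CPM in mESC against 0.263, 0.431 and 0.576 in mNPC and against 1.25, 1.07 and 0.939 in mCtx. Sema4b was level, at 23.8 ± 0.942, 27.7 ± 3.05 and 27.8 ± 3.38 CPM, and passed in no cytoplasmic comparison. Of the remaining semaphorins, Sema3f, Sema4c, Sema4g and Sema6b were higher in mCtx than in both other cell types, and Sema5b averaged 24.3 ± 1.43 CPM in mNPC and 26.98 ± 2.71 in mCtx (0.15, SE 0.17, edgeR adjusted p = 0.453).

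The plexins, which receive semaphorins, split by class. All 4 class A plexins, Plxnc1 and Plxnd1 were higher in mCtx than in both other cell types, while the class B plexins were not. Plxna4, a receptor for Sema3a and class 6 semaphorins, was at 0.646, 0.595 and 0.787 CPM in mESC against 6.31, 3.88 and 4.75 in mNPC and against 484, 552 and 535 in mCtx. Plxna2, a receptor for class 6 semaphorins, was at 3.77, 3.81 and 2.79 CPM in mESC against 28.6, 25.5 and 23.5 in mNPC and against 581, 620.2 and 636 in mCtx. The log2 fold change in mCtx over mNPC was 6.71, SE 0.22, edgeR adjusted p = 5.98e-19 for Plxna4 and 4.56, SE 0.27, edgeR adjusted p = 5.91e-14 for Plxna2. Plxna1, the Sema6d receptor, was at 35.6, 26.2 and 25.7 CPM in mESC against 29.1, 29.3 and 34.3 in mNPC and against 269, 281 and 266 in mCtx, overlapping between mESC and mNPC (log2 fold change 0.08, SE 0.15, edgeR adjusted p = 0.647) and higher in mCtx than in mNPC (3.14, SE 0.16, edgeR adjusted p = 1.89e-15), and opposite-strand genes overlap 27.5% of its span. Plxnd1, the Sema3e receptor, was at 6.89, 4.76 and 1.70 CPM in mESC against 13.6, 13.5 and 12.7 in mNPC and against 175, 189 and 193 in mCtx (log2 fold change 3.80, SE 0.29, edgeR adjusted p = 9.02e-12 in mCtx over mNPC). Plxnb2, a class B plexin of neural progenitors, was at 17.99, 15.1 and 13.6 CPM in mESC against 112, 97.8 and 114 in mNPC and against 96.1, 107 and 97.2 in mCtx. The mNPC and mCtx values overlapped (log2 fold change -0.11, SE 0.16, edgeR adjusted p = 0.556), and both were above mESC (2.80, SE 0.17, edgeR adjusted p = 5.71e-14 in mNPC). By TPM, the leading plexins were Plxna2 at 16.97 ± 1.304 in mCtx and Plxnb1 at 5.91 ± 1.51 in mNPC, the latter not separate from Plxnb2 at 5.26 ± 0.512.

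Among ephrins, all 3 B-type members rose in neurons. Efnb2, a ligand of Ephb4 and other B receptors, was at 3.61, 3.39 and 2.42 CPM in mESC against 12.98, 10.2 and 12.7 in mNPC and against 282, 278 and 278 in mCtx. Efnb3, known from the midline, was at 1.35, 1.19 and 1.9984 CPM in mESC against 2.68, 1.56 and 1.66 in mNPC and against 136, 138 and 130.2 in mCtx. No mCtx library overlapped another cell type for either gene. The log2 fold change in mCtx over mNPC was 4.55, SE 0.15, edgeR adjusted p = 3.37e-19 for Efnb2 and 6.08, SE 0.20, edgeR adjusted p = 6.27e-19 for Efnb3. Efnb1, an X-linked B-type ephrin, rose at both steps, from 2.58, 2.14 and 0.908 CPM in mESC to 21.1, 18.98 and 22.5 in mNPC and 69.6, 75.5 and 74.4 in mCtx (log2 fold change 3.45, SE 0.27, edgeR adjusted p = 6.56e-12, then 1.81, SE 0.22, edgeR adjusted p = 3.45e-08).

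Of the A-type ephrins, Efna3 was at 11.6, 5.17 and 4.84 CPM in mESC against 3.94, 6.26 and 6.55 in mNPC and against 54.5, 53.5 and 49.5 in mCtx. Its mESC and mNPC values overlapped, and mCtx was higher than mNPC (log2 fold change 3.24, SE 0.32, edgeR adjusted p = 9.85e-10). Genes on the opposite strand overlap 38.3% of its span. Efna2 was at 4.58, 4.28 and 3.75 CPM in mESC against 7.88, 7.17 and 8.14 in mNPC and against 21.7, 20.9 and 18.5 in mCtx (log2 fold change 1.40, SE 0.17, edgeR adjusted p = 3.86e-08 in mCtx over mNPC). Efna5, a repellent in topographic maps, was low in the cytoplasm, at 1.29, 0.595 and 0.545 CPM in mESC against 0.210, 0.270 and 0.0720 in mNPC and against 11.6, 10.3 and 10.2 in mCtx (log2 fold change 5.73, SE 0.50, edgeR adjusted p = 9.44e-11 in mCtx over mNPC). Efna4 did not pass in mCtx over mNPC (log2 fold change 0.09, SE 0.18, edgeR adjusted p = 0.703). By TPM the order in mCtx cytoplasm was Efnb2 at 27.4 ± 1.02, Efnb3 at 14.003 ± 0.890, Efna3 at 9.34 ± 0.865 and Efnb1 at 8.42 ± 0.662 (SD, n = 3), of which Efna3 and Efnb1 lay closest together.

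In total, 10 of the 14 Eph receptors were higher in mCtx than in mNPC cytoplasm, and Ephb3 and Ephb4 were lower. Epha5, a receptor for A-type ephrins in the forebrain, was at 0.269, 0.0595 and 0.121 CPM in mESC against 39.6, 38.8 and 41.5 in mNPC and against 286, 285 and 302 in mCtx. The 3 cell types did not overlap, and the log2 fold change was 7.95, SE 0.25, edgeR adjusted p = 9.36e-20 in mNPC over mESC and 2.86, SE 0.14, edgeR adjusted p = 1.61e-15 in mCtx over mNPC. Epha3 was at 0.215, 0 and 0 CPM in mESC against 4.26, 2.48 and 3.31 in mNPC and against 140.0, 121 and 136 in mCtx (log2 fold change 5.30, SE 0.27, edgeR adjusted p = 2.65e-15 in mCtx over mNPC). Epha4, which binds ephrins of both types, was already present in mESC, at 29.1, 20.995 and 30.3 CPM in mESC against 18.2, 11.5 and 13.6 in mNPC and against 169, 154 and 174 in mCtx. It was lowest in mNPC, below mESC (log2 fold change -0.89, SE 0.24, edgeR adjusted p = 0.0014), and higher in mCtx than in mNPC (3.52, SE 0.25, edgeR adjusted p = 1.64e-12). Epha7, which comes in full-length and kinase-lacking forms, was at 1.72, 1.96 and 1.21 CPM in mESC against 0.736, 0.539 and 0.288 in mNPC and against 80.96, 71.8 and 87.9 in mCtx (log2 fold change 7.19, SE 0.33, edgeR adjusted p = 2.95e-16 in mCtx over mNPC).

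Epha6 had 1 count in all mNPC cytoplasm, 0.539, 0.119 and 0.666 CPM in mESC and 13.4, 13.7 and 13.8 in mCtx, where it was 701-fold higher, with a 95% counting interval of 125 to 27729 than in mNPC. Epha8 had no count in any mNPC library of any fraction, with 1.88, 2.38 and 0.848 CPM in mESC cytoplasm and 14.6, 17.6 and 15.8 in mCtx cytoplasm (at least 89.6-fold higher in mCtx than in mNPC). Both genes were thus read in stem cells and neurons and at or near 0 in progenitors. Epha10, which lacks kinase activity, was at 2.53, 1.78 and 1.21 CPM in mESC against 0.631, 0.809 and 1.58 in mNPC and against 4.69, 5.20 and 5.17 in mCtx (log2 fold change 2.35, SE 0.33, edgeR adjusted p = 7.04e-07 in mCtx over mNPC).

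Among the B receptors, Ephb1 was at 0.215, 0.178 and 0.242 CPM in mESC against 11.3, 10.4 and 13.4 in mNPC and against 73.6, 74.5 and 79.3 in mCtx, with no overlap between cell types (log2 fold change 5.73, SE 0.29, edgeR adjusted p = 1.66e-15 in mNPC over mESC, then 2.70, SE 0.17, edgeR adjusted p = 1.59e-13). Ephb2 was at 16.5, 13.98 and 12.8 CPM in mESC against 11.9, 8.25 and 7.78 in mNPC and against 189.9, 212 and 199 in mCtx and was higher in mCtx than in mNPC (log2 fold change 4.42, SE 0.25, edgeR adjusted p = 1.21e-14). Ephb6, which lacks kinase activity, averaged 1.76 ± 0.697 CPM in mNPC and 76.01 ± 12.7 in mCtx (log2 fold change 5.39, SE 0.21, edgeR adjusted p = 1.38e-17). By TPM, Epha5 led in mCtx at 21.7 ± 0.915, followed by Ephb2 at 11.1 ± 1.13 and Epha4 at 10.3 ± 0.414, which lay within about their spread of each other.

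In mCtx over mNPC cytoplasm, 1 of 3 netrins was lower and 0 higher, while 4 of 5 netrin receptors were higher and 0 lower. Ntn1, the secreted guidance cue, was at 43.7, 40.9 and 108 CPM in mESC against 94.1, 90.5 and 105 in mNPC and against 10.6, 10.5 and 11.97 in mCtx. All mCtx values were below all others, and 1 mESC library reached the mNPC values. Ntn1 was lower in mCtx than in mNPC (log2 fold change -3.14, SE 0.32, edgeR adjusted p = 2.57e-09) but did not pass between mNPC and mESC (0.59, SE 0.29, edgeR adjusted p = 0.066), but did without mESC cytoplasm replicate 3 (log2 fold change 1.20). Ntn4, a laminin-binding netrin, was at 0.862, 0.238 and 0.0606 CPM in mESC against 26.02, 27.7 and 29.3 in mNPC and against 20.8, 19.1 and 23.6 in mCtx, higher in mNPC than in mESC (log2 fold change 6.07, SE 0.32, edgeR adjusted p = 2.99e-15) and not past the threshold between mCtx and mNPC (-0.39, SE 0.21, edgeR adjusted p = 0.102).

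Dcc, the attractive netrin receptor, was at 0.0539, 0 and 0.182 CPM in mESC against 19.2, 18.3 and 15.3 in mNPC and against 59.6, 64.3 and 67.3 in mCtx. The 3 cell types did not overlap, and the log2 fold change was 7.70, SE 0.42, edgeR adjusted p = 5.74e-15 in mNPC over mESC and 1.85, SE 0.21, edgeR adjusted p = 1.8e-08 in mCtx over mNPC. Unc5c and Unc5d, repulsive netrin receptors, were mainly neuronal. Unc5c was at 0.108, 0 and 0.121 CPM in mESC against 4.73, 1.67 and 2.45 in mNPC and against 92.5, 88.03 and 92.98 in mCtx (log2 fold change 4.93, SE 0.36, edgeR adjusted p = 2.87e-12 in mCtx over mNPC). Unc5d was at 0.808, 0.595 and 0.908 CPM in mESC against 1.21, 1.56 and 1.08 in mNPC and against 63.3, 66.9 and 68.2 in mCtx (log2 fold change 5.66, SE 0.26, edgeR adjusted p = 2.35e-16 in mCtx over mNPC). Unc5a rose at both steps, with means of 0.737 ± 0.396, 5.25 ± 1.0021 and 42.01 ± 1.15 CPM.

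Slits and their receptors were mostly neuronal as well, with Slit3 near 0 in mNPC. Slit1 was at 0.646, 0.297 and 0.182 CPM in mESC against 10.2, 7.71 and 8.35 in mNPC and against 52.5, 64.9 and 66.1 in mCtx, and Slit2 at 1.45, 1.67 and 2.85 CPM in mESC against 6.10, 6.36 and 5.98 in mNPC and against 28.9, 29.4 and 32.2 in mCtx. Both rose at each step, and in mCtx over mNPC the log2 fold change was 2.80, SE 0.22, edgeR adjusted p = 1.86e-11 for Slit1 and 2.29, SE 0.17, edgeR adjusted p = 2.83e-12 for Slit2. Slit3 was at 11.4, 9.75 and 8.78 CPM in mESC against 0.105, 0.108 and 0 in mNPC and against 10.003, 12.7 and 13.4 in mCtx. Its mESC and mCtx values overlapped (log2 fold change 0.26, SE 0.21, edgeR adjusted p = 0.243) and both lay far above mNPC (-6.87, SE 0.43, edgeR adjusted p = 8.52e-14 in mNPC over mESC). Robo1 was at 13.8, 17.5 and 17.8 CPM in mESC against 24.97, 19.1 and 16.6 in mNPC and against 273, 270.2 and 290.0 in mCtx, and Robo2 at 0.377, 0 and 0.182 CPM in mESC against 15.4, 14.9 and 15.8 in mNPC and against 174, 165 and 196 in mCtx. Robo1 did not pass between mNPC and mESC (log2 fold change 0.31, SE 0.16, edgeR adjusted p = 0.079), whereas Robo2 rose (6.26, SE 0.45, edgeR adjusted p = 1.36e-12). In mCtx over mNPC, both were higher (3.77, SE 0.17, edgeR adjusted p = 1.23e-16 for Robo1 and 3.53, SE 0.27, edgeR adjusted p = 7.44e-12 for Robo2). Robo3, the receptor of commissural axons, was below 1 CPM in every cytoplasmic library, at 0.431, 0.178 and 0.727 CPM in mESC against 0.578, 0.647 and 0.432 in mNPC and against 0.125, 0.179 and 0.0783 in mCtx, and was lower in mCtx than in mNPC (log2 fold change -2.03, SE 0.50, edgeR adjusted p = 0.000886).

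On chromatin, which holds transcripts still attached to their genes, most members were again higher in mCtx. In mCtx over mNPC chromatin, 41 members were higher and 12 lower, against 30.2% and 39.2% of all genes. In mCtx over mESC, 51 were higher and 16 lower, against 33.0% and 47.4%. In mNPC over mESC, 32 were higher and 26 lower, against 33.8% and 42.7%. This majority turned with TPM (22 higher and 32 lower, beside 11.1% and 59.9% of all genes). A total of 40 members were higher in mCtx than in mNPC in both chromatin and cytoplasm, which was 40 of the 41 on chromatin and 40 of the 48 in the cytoplasm. The share of all genes called so in both fractions is not given here.

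A total of 6 members passed as higher in mCtx than in mNPC in the cytoplasm and did not pass on chromatin: Dcc, Sema3a, Sema3b, Sema3d, Sema4c and Efna2. The share of all genes with this pattern is not given here. Dcc on chromatin was at 0.683, 1.46 and 0.578 CPM in mESC against 1980.1, 2008 and 1634 in mNPC and against 1854, 2196 and 2497 in mCtx. The mNPC and mCtx libraries overlapped (log2 fold change 0.22, SE 0.20, edgeR adjusted p = 0.332), although the nucleoplasm held 155, 114 and 113 CPM in mNPC and 799, 958 and 802 in mCtx. Sema3a on chromatin was at 0.439, 0.940 and 0.315 CPM in mESC against 132, 127 and 139 in mNPC and against 110.2, 138 and 157 in mCtx (log2 fold change 0.03, SE 0.15, edgeR adjusted p = 0.9). Sema4c, the ligand of plexin B2, averaged 23.7 ± 3.58 CPM in mNPC and 28.2 ± 4.47 in mCtx (log2 fold change 0.25, SE 0.14, edgeR adjusted p = 0.117). Efna2 was at 1.37, 2.19 and 1.84 CPM in mESC against 3.02, 2.63 and 3.87 in mNPC and against 4.14, 4.03 and 3.32 in mCtx (log2 fold change 0.28, SE 0.19, edgeR adjusted p = 0.203). With median-ratio size factors, 3 of the 6 passed on chromatin as well, Dcc at a log2 fold change of 0.48, Sema4c at 0.51 and Efna2 at 0.54. Whether the change itself differed between the fractions is the ratio test given below.

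**Figure D3:**
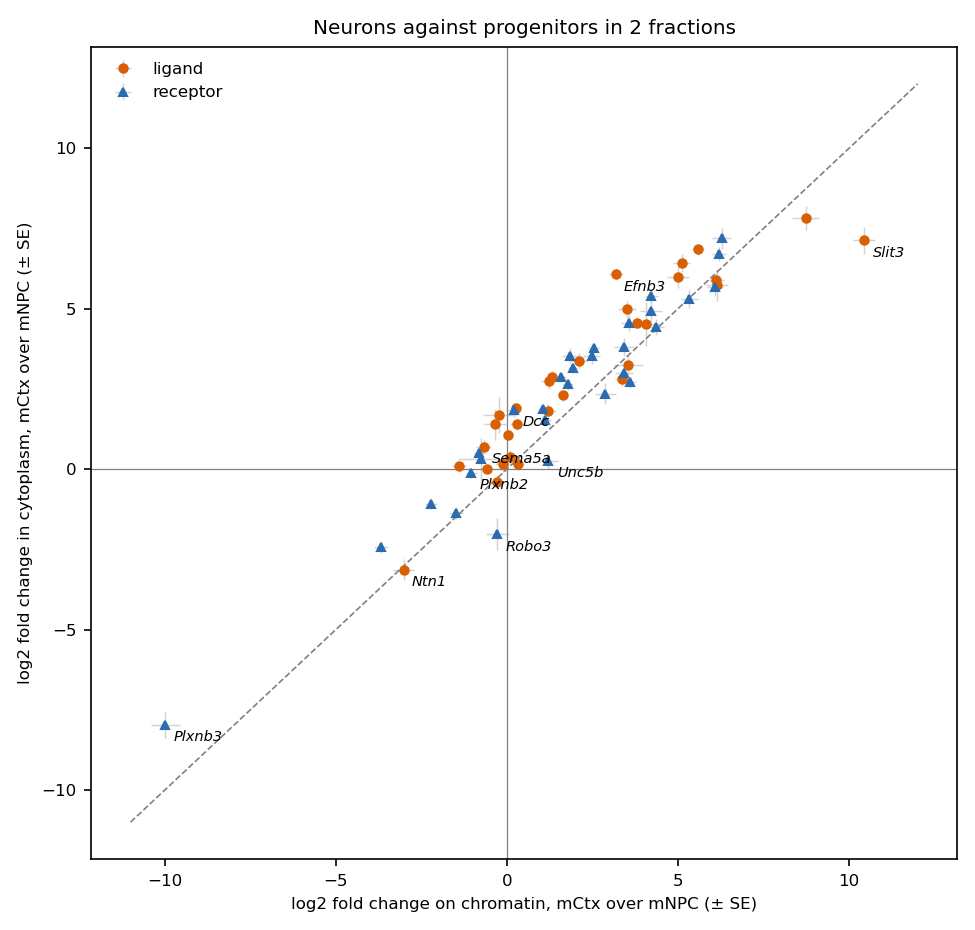
Log2 fold change of mCtx over mNPC on chromatin (horizontal axis) and in the cytoplasm (vertical axis) with SE bars, for the 61 members with more than 3 counts in each of the 4 groups. Circles are ligands, triangles receptors, and the dashed line marks equal change. Most points are above 0 on both axes, and Plxnb3 and Ntn1 are below 0 on both.

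The 5 members highest on mNPC chromatin were Plxnb1, Plxnb2, Plxnb3, Ephb3 and Sema5a. Plxnb3 was at 1.17, 0.731 and 0.788 CPM in mESC against 173, 108 and 167 in mNPC and against 0.180, 0.0733 and 0.175 in mCtx, and no mNPC library overlapped another cell type (log2 fold change 7.36, SE 0.32, edgeR adjusted p = 6.44e-17 over mESC, and -9.99, SE 0.42, edgeR adjusted p = 5.07e-17 in mCtx over mNPC). Plxnb2 was at 40.4, 29.3 and 38.7 CPM in mESC against 89.96, 87.9 and 108 in mNPC and against 52.4, 44.7 and 42.2 in mCtx. Sema5a was at 17.6, 37.6 and 32.001 CPM in mESC against 325, 285 and 249 in mNPC and against 153, 187 and 195 in mCtx, lower in mCtx than in mNPC (log2 fold change -0.68, SE 0.21, edgeR adjusted p = 0.00603), where the cytoplasm showed the reverse. This chromatin difference did not pass with median-ratio size factors (log2 fold change -0.42) and was of opposite sign with TPM (0.41). Sema6d was at 1.85, 2.98 and 0.736 CPM in mESC against 1105, 1073 and 971 in mNPC and against 1073, 1116 and 1167 in mCtx, and mNPC and mCtx overlapped (log2 fold change 0.09, SE 0.19, edgeR adjusted p = 0.698). Sema6a was at 16.2, 43.4 and 20.1 CPM in mESC against 325, 298 and 312 in mNPC and against 296, 278 and 292 in mCtx, and mNPC and mCtx again did not pass (log2 fold change -0.11, SE 0.25, edgeR adjusted p = 0.716).

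Plxna4, Epha5 and Robo2, which are long receptor genes, were higher on mCtx than on mNPC chromatin. Plxna4, with a span of 442267 bases, was at 3.76, 4.65 and 2.63 CPM in mESC against 64.9, 54.8 and 55.1 in mNPC and against 4079, 4329 and 4337 in mCtx. Epha5, with 359592 bases, was at 1.42, 1.31 and 1.16 CPM in mESC against 954, 927 and 935 in mNPC and against 2325, 2832 and 3243 in mCtx. Robo2, with 519520 bases, was at 2.93, 1.62 and 1.26 CPM in mESC against 315, 324 and 289 in mNPC and against 1415, 1776 and 1976 in mCtx. The log2 fold change in mCtx over mNPC was 6.19, SE 0.21, edgeR adjusted p = 6.13e-19 for Plxna4, 1.58, SE 0.14, edgeR adjusted p = 9.43e-11 for Epha5 and 2.48, SE 0.25, edgeR adjusted p = 1.92e-09 for Robo2. Slit3 on chromatin was at 185, 224 and 142 CPM in mESC against 0.415, 0.164 and 0.276 in mNPC and against 397, 407 and 412 in mCtx, so the mNPC gap of the cytoplasm was present here too (log2 fold change -9.30, SE 0.32, edgeR adjusted p = 5.39e-19 in mNPC over mESC, and 10.45, SE 0.32, edgeR adjusted p = 1.02e-19 in mCtx over mNPC). Epha6 was at 4.68, 2.87 and 0.841 CPM in mESC against 0, 0.164 and 0.414 in mNPC and against 357, 388 and 394 in mCtx, and Epha3 at 0.342, 0.888 and 0.631 CPM in mESC against 33.9, 25.7 and 21.7 in mNPC and against 911, 1125 and 1244 in mCtx. Neither overlapped between mNPC and mCtx (log2 fold change 10.96, SE 0.45, edgeR adjusted p = 2.39e-17 and 5.33, SE 0.26, edgeR adjusted p = 6.54e-16).

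The 11 members highest on mESC chromatin included Ntn1 and Epha2. Epha2 was at 73.8, 167 and 166 CPM in mESC against 0.474, 0.931 and 0.553 in mNPC and against 0.270, 0.367 and 0.525 in mCtx (log2 fold change -7.66, SE 0.35, edgeR adjusted p = 1.76e-16 in mNPC over mESC). Ntn1 was at 254, 428 and 668 CPM in mESC against 152, 134 and 137 in mNPC and against 17.8, 18.5 and 15.7 in mCtx, with a wide spread in mESC, and was lower in mNPC than in mESC (log2 fold change -1.67, SE 0.29, edgeR adjusted p = 1.19e-05) and in mCtx than in mNPC (-3.02, SE 0.32, edgeR adjusted p = 4.01e-09). With rescaled TPM the mNPC against mESC difference was 0.06. The remaining members highest in mESC were Epha1, Robo4, Unc5b, Ntn5, Nrp2, Sema3b, Sema3e, Sema3g and Sema4b. Epha1 had 1 count in all mNPC chromatin and none in mCtx chromatin, against 6.83, 6.74 and 7.36 CPM in mESC. Robo4 had 4.98, 15.4 and 27.3 CPM in mESC and was 282-fold lower, with a 95% counting interval of 77.98 to 2336 in mCtx. Efna1, by contrast, was nearly level between mESC and mNPC at 1.66, 1.78 and 1.68 and 1.60, 1.37 and 1.52 CPM (log2 fold change -0.19, SE 0.33, edgeR adjusted p = 0.612), and had 3 counts in mCtx.

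Within a cell type, by whole-gene counts, more guidance genes were richer on chromatin than in the cytoplasm. Chromatin exceeded cytoplasm for 55 members in mESC, 43 in mNPC and 33 in mCtx, while 3, 7 and 14 were lower. The background was 44.6% higher and 32.9% lower in mESC, 37.0% and 32.5% in mNPC, with 35.6% and 37.6% in mCtx. The members' median log2 fold change was 1.84 in mESC, 1.36 in mNPC and 0.55 in mCtx, beside 0.36, 0.06 and 0.00 over all genes. With total-count scaling the mCtx median was -0.01, beside -0.56 over all genes, with 29 members higher and 21 lower. With TPM, the members' median less that of all genes was 0.09 in mESC, 0.15 in mNPC and -0.06 in mCtx, and with rescaled TPM it was 0.04, 0.18 and -0.29. With rescaled TPM, 41 of 64 members were higher on mCtx chromatin, beside 63.5% of all genes.

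By whole-gene counts, 30 members were higher on chromatin in all 3 cell types, and only Efna2 and Efna3 were lower in all 3. The share of all genes called alike in all 3 is not given here. Of these 30, 29 were tested with TPM, where 22 were called higher in mESC, 22 in mNPC and 29 in mCtx, and 0 lower in any. Over all genes with TPM, 56.1%, 43.8% and 69.0% were higher. The 30 were picked by the same contrast in the same libraries, so the TPM calls are no independent check. Efna3 did not pass with TPM in mESC (-0.18 on the log2(TPM + 1) scale).

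The ephrins leaned to the cytoplasm in mNPC and mCtx. In mCtx, 5 of 8 ephrins were lower and 1 higher on chromatin, a lean that held under total-count, median-ratio, TPM and rescaled TPM scaling (6, 5, 4 and 6 lower). In mNPC, 4 were lower and 2 higher, and in mESC 2 were lower and 3 higher. Efnb3 in mCtx was at 17.1, 15.1 and 11.3 CPM on chromatin, 81.4, 83.6 and 78.5 in the nucleoplasm and 136, 138 and 130.2 in the cytoplasm. The fractions did not overlap and rose from chromatin to cytoplasm (log2 fold change -3.22, SE 0.17, edgeR adjusted p = 1.96e-15). Efna3 in mCtx was at 7.82, 8.14 and 6.82 CPM on chromatin, 28.6, 25.2 and 24.6 in the nucleoplasm and 54.5, 53.5 and 49.5 in the cytoplasm (log2 fold change -2.79, SE 0.31, edgeR adjusted p = 8.72e-09), and Efnb1 at 17.6, 14.5 and 11.5 CPM on chromatin, 52.3, 50.00005 and 49.5 in the nucleoplasm and 69.6, 75.5 and 74.4 in the cytoplasm (log2 fold change -2.33, SE 0.22, edgeR adjusted p = 4.54e-10). Efna2 was also lower on mCtx chromatin, with 4.14, 4.03 and 3.32 CPM there (log2 fold change -2.41, SE 0.18, edgeR adjusted p = 3.67e-12). Efna5 was the exception, at 244, 283 and 291 CPM on chromatin, 116, 132 and 102 in the nucleoplasm and 11.6, 10.3 and 10.2 in the cytoplasm (log2 fold change 4.67, SE 0.30, edgeR adjusted p = 1.06e-13). Efna5 spans 277134 bases, the other 7 ephrins between 4639 and 43340, and Efnb2, the next longest, did not pass (log2 fold change 0.10, SE 0.12, edgeR adjusted p = 0.453), with calls of 0.39 with median-ratio size factors and -0.46 with total counts.

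The netrin receptors, Robos and Slits leaned to chromatin. Dcc, the longest member with 1092332 bases, was at 1980.1, 2008 and 1634 CPM on chromatin, 155, 114 and 113 in the nucleoplasm and 19.2, 18.3 and 15.3 in the cytoplasm in mNPC. In mCtx it was at 1854, 2196 and 2497 CPM on chromatin, 799, 958 and 802 in the nucleoplasm and 59.6, 64.3 and 67.3 in the cytoplasm. The log2 fold change of chromatin over cytoplasm was 6.73, SE 0.26, edgeR adjusted p = 5.84e-18 in mNPC and 5.10, SE 0.24, edgeR adjusted p = 1.88e-16 in mCtx. Slit3 gave 5.08, SE 0.22, edgeR adjusted p = 5.58e-17 in mCtx, and Unc5d in mESC, at 46.7, 33.2 and 26.3 CPM on chromatin, 5.16, 3.07 and 2.20 in the nucleoplasm and 0.808, 0.595 and 0.908 in the cytoplasm, gave 5.51, SE 0.27, edgeR adjusted p = 1.25e-15. Robo1, Robo2, Unc5c and Slit2 were higher on chromatin in every cell type, with mCtx log2 fold changes of 2.17, 3.27, 3.63 and 3.42. On the log2(TPM + 1) scale these were 0.51, 2.21, 2.89 and 3.38, and Robo1 was at 0.01 with rescaled TPM, not past the threshold. Slit1 was at 19.9, 18.5 and 18.2 CPM on chromatin, 106, 127 and 90.2 in the nucleoplasm and 10.2, 7.71 and 8.35 in the cytoplasm in mNPC (log2 fold change 1.10, SE 0.22, edgeR adjusted p = 7.79e-05).

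Semaphorins, plexins and Eph receptors were mixed, and in mCtx their balance moved with the scaling. In mCtx, 9 of 20 semaphorins were higher and 5 lower on chromatin, 8 and 7 with total counts, and 18 and 1 with TPM. Of the 9 plexins, 4 were higher and 3 lower, and 8 and 0 with TPM. All genes moved too, with 35.6% higher and 37.6% lower as fitted, 26.5% and 47.4% with total counts, and 69.0% and 11.1% with TPM. Sema6d was at 1073, 1116 and 1167 CPM on chromatin, 385, 439 and 373 in the nucleoplasm and 72.4, 64.9 and 70.3 in the cytoplasm in mCtx (log2 fold change 4.02, SE 0.22, edgeR adjusted p = 4.78e-15). Epha6 was at 357, 388 and 394 CPM on chromatin, 164, 182 and 148 in the nucleoplasm and 13.4, 13.7 and 13.8 in the cytoplasm (log2 fold change 4.80, SE 0.29, edgeR adjusted p = 3.78e-14), and Ephb1 at 884, 953 and 980.1 CPM on chromatin, 294, 313 and 278 in the nucleoplasm and 73.6, 74.5 and 79.3 in the cytoplasm (log2 fold change 3.63, SE 0.17, edgeR adjusted p = 2.24e-16). Plxnd1 leaned to the cytoplasm in mCtx, at 96.2, 78.8 and 69.6 CPM on chromatin, 284, 253 and 262 in the nucleoplasm and 175, 189 and 193 in the cytoplasm (log2 fold change -1.19, SE 0.26, edgeR adjusted p = 0.000204), a direction that turned with TPM (1.17).

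**Figure D4:**
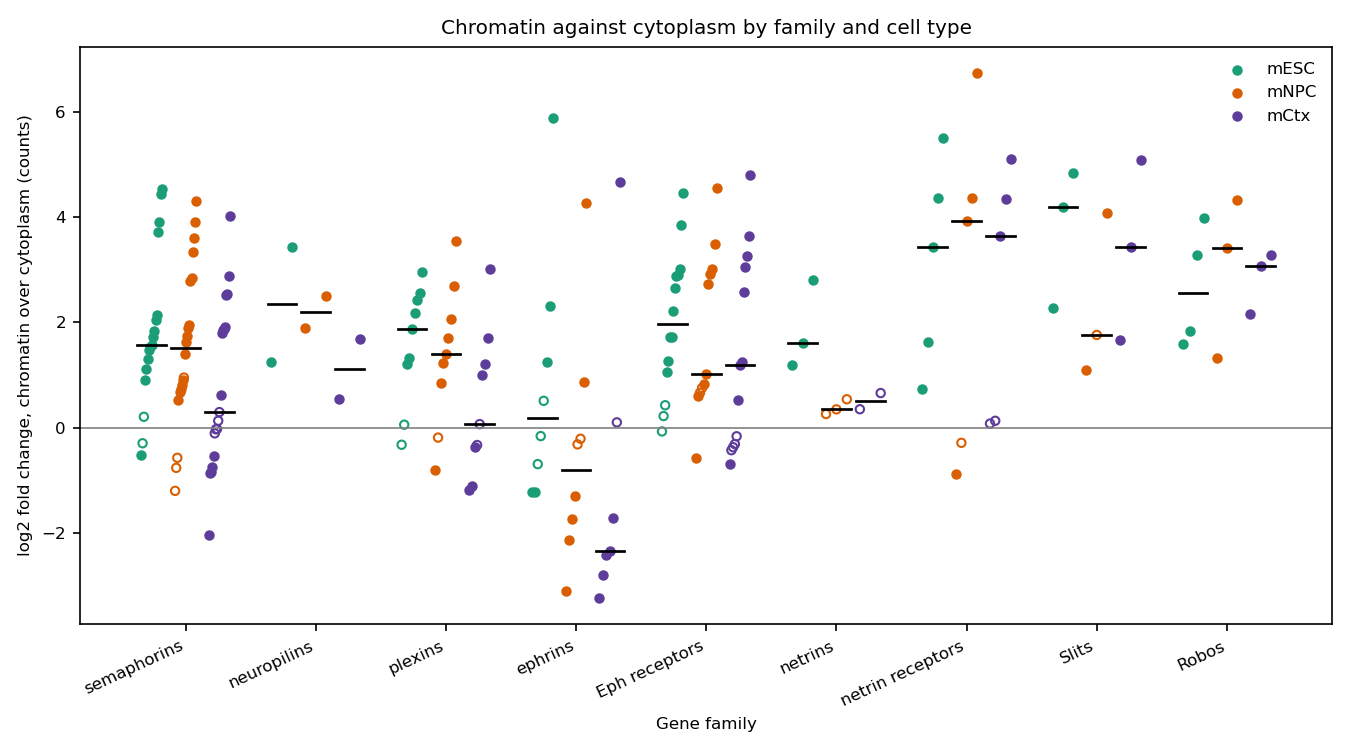
Log2 fold change of chromatin over cytoplasm for each member by family and cell type, for members with more than 3 counts in both fractions (65 in mESC, 64 in mNPC, 63 in mCtx). Filled points passed the threshold, open points did not, and bars mark the median of the drawn members. Ephrins in mNPC and mCtx have medians below 0, and in mCtx the netrin receptors, Slits and Robos have the highest medians.

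The chromatin-to-cytoplasm fold change followed gene span when whole-gene counts were used. Over the 68 members, Spearman's rho between span and this log2 fold change was 0.79 in mESC, 0.72 in mNPC and 0.86 in mCtx. Over all protein-coding genes tested it was 0.58, 0.55 and 0.68. These are descriptions across genes, which share libraries and are not independent replicates. The 31 members of 100 kb or more had a median log2 fold change of 2.53 in mCtx, and the 29 under 30 kb a median of -0.54. With TPM, rescaled between libraries, rho over 64 members was -0.07 in mESC, 0.28 in mNPC and 0.48 in mCtx. Efna5 in mCtx changed from the value above to 0.16 on that scale, and Efnb3 to -2.00. How much of each count lies in introns cannot be read from the count table.

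**Figure D5:**
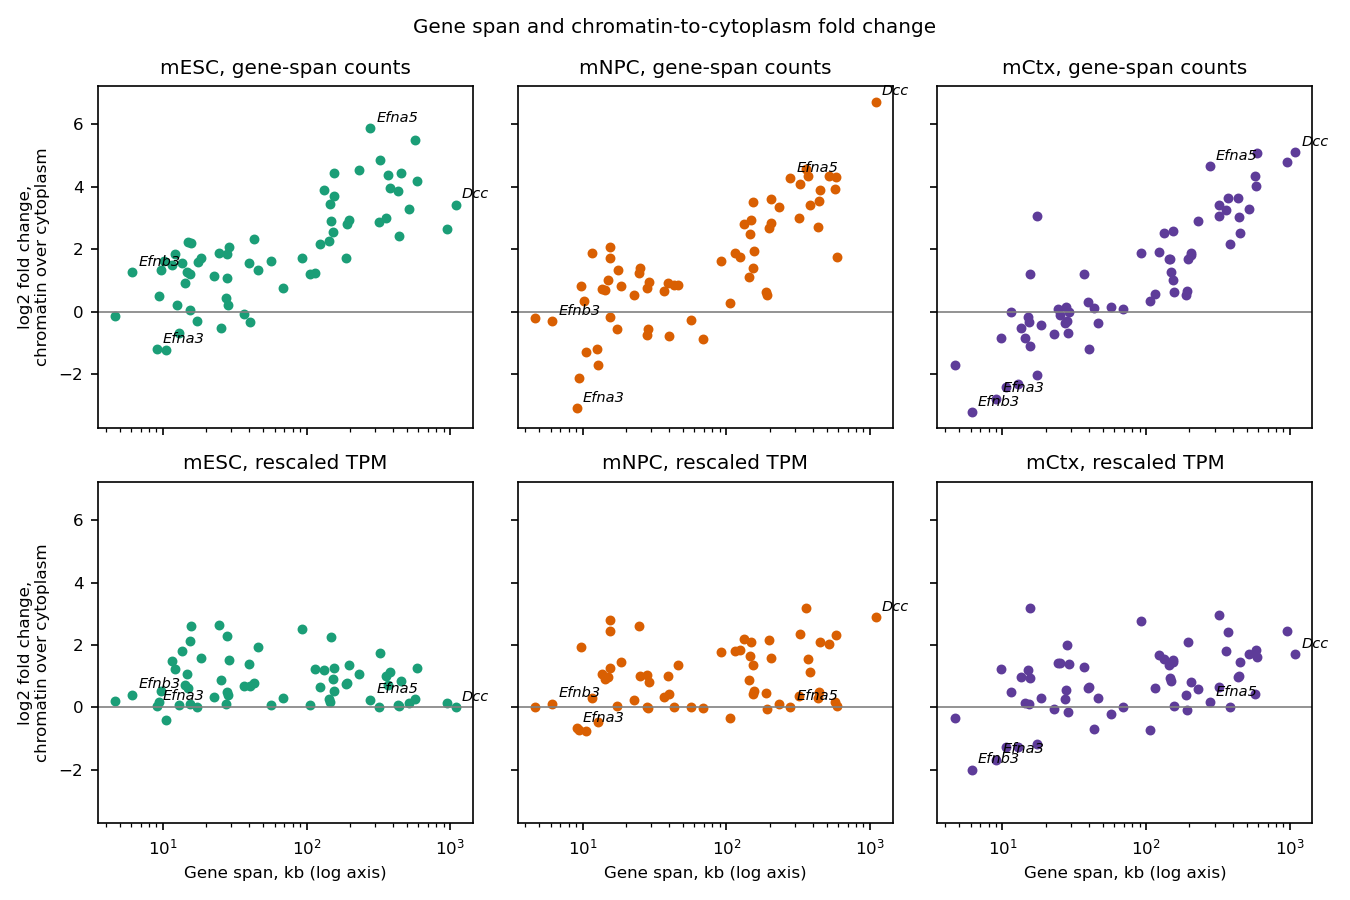
Log2 fold change of chromatin over cytoplasm against gene span in kilobases (log axis), with whole-gene counts in the upper panels and rescaled TPM in the lower ones, 1 panel for each cell type and 1 point for each member. The upper panels slope upward, and in the lower panels the long members lie near the short ones in mESC.

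Between nucleoplasm and chromatin, most members were higher in the nucleoplasm in mNPC. There, 37 members were higher in the nucleoplasm and 13 lower, against 32.5% and 33.5% of all genes. In mESC, 22 were higher and 27 lower (30% and 36.3%), and in mCtx 19 and 20 (30.6% and 26.5%). The difference between cell types in this contrast was not tested. In mESC and mCtx the majority turned under some alternatives. In mCtx, for example, 23 were higher and 17 lower with total counts, beside 36.9% and 18.9% of all genes. In mESC, fitting only the compared groups gave 20 and 14, and leaving out chromatin replicate 2 gave 22 and 20. The same 13 members were higher in the nucleoplasm in all 3 cell types, and another 13 were lower in all 3. The share of all genes called alike in all 3 is not given here.

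By whole-gene counts, the members lower in every nucleoplasm were long: Epha3, Epha5, Ephb1, Robo1, Robo2, Slit2, Efna5, Dcc, Unc5c, Unc5d, Plxna4, Sema5a and Sema6d. Spearman's rho between span and this fold change was -0.81 in mESC, -0.58 in mNPC and -0.76 in mCtx over the 68 members. Over all protein-coding genes tested it was -0.61, -0.44 and -0.57, so the trend was not particular to the members. With rescaled TPM, rho over 64 members was -0.33 in mESC, -0.04 in mNPC and -0.23 in mCtx. Dcc in mNPC fell from the chromatin to the nucleoplasmic values given above (log2 fold change -3.88, SE 0.22, edgeR adjusted p = 2.79e-14), and it was lower in mCtx too (-1.36, SE 0.20, edgeR adjusted p = 2.18e-06). Slit3 in mESC was at 185, 224 and 142 CPM on chromatin, 33.4, 26.5 and 16.01 in the nucleoplasm and 11.4, 9.75 and 8.78 in the cytoplasm (log2 fold change -2.85, SE 0.20, edgeR adjusted p = 2.15e-12). Efna5 in mESC was at 59.1, 54.8 and 33.1 CPM on chromatin, 6.22, 4.46 and 1.77 in the nucleoplasm and 1.29, 0.595 and 0.545 in the cytoplasm (log2 fold change -3.53, SE 0.30, edgeR adjusted p = 1.07e-10). With TPM, several of these 13 were called higher in the nucleoplasm instead: 1 in mESC, 5 in mNPC and 5 in mCtx, beside 4, 4 and 5 called lower. Robo1 gave 0.74, 0.98 and 1.23 on the log2(TPM + 1) scale in mESC, mNPC and mCtx, all called higher. Slit2 and Unc5c were called lower in all 3 cell types with TPM and with rescaled TPM.

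By the same counts, the members higher in every nucleoplasm were Ephb6, Efna2, Efna3, Efna4, Efnb1, Unc5b, Plxna1, Plxnb2, Plxnd1, Sema4c, Sema4g, Sema6b and Sema7a. With TPM, 8 of these were called higher in mESC, 7 in mNPC and 9 in mCtx, and Sema4c was called lower in mNPC (-0.63 on the log2(TPM + 1) scale). Plxnb2 in mNPC was at 89.96, 87.9 and 108 CPM on chromatin, 1095, 1463 and 1199.9 in the nucleoplasm and 112, 97.8 and 114 in the cytoplasm. Its nucleoplasmic libraries were far above both other fractions (log2 fold change 3.72, SE 0.17, edgeR adjusted p = 5.32e-16), and the same contrast gave 1.83, SE 0.16, edgeR adjusted p = 2.24e-10 in mESC and 1.96, SE 0.16, edgeR adjusted p = 1.11e-10 in mCtx. With TPM and with rescaled TPM, Plxnb2 kept this call in mNPC and lost it in mESC and mCtx. Unc5b in mNPC was at 1.84, 3.23 and 2.62 CPM on chromatin, 17.6, 31.7 and 25.3 in the nucleoplasm and 4.36, 4.48 and 5.33 in the cytoplasm (log2 fold change 3.27, SE 0.26, edgeR adjusted p = 2.06e-11), and Plxnd1 at 6.29, 9.04 and 7.60 CPM on chromatin, 61.6, 80.2 and 62.99 in the nucleoplasm and 13.6, 13.5 and 12.7 in the cytoplasm (log2 fold change 3.16, SE 0.30, edgeR adjusted p = 4.25e-10). Plxnb3, the progenitor plexin, was at 173, 108 and 167 CPM on chromatin, 449, 421 and 456 in the nucleoplasm and 52.5, 39.5 and 45.4 in the cytoplasm (log2 fold change 1.57, SE 0.22, edgeR adjusted p = 4.4e-07). With TPM this Plxnb3 difference in mNPC was 0.34 and did not pass, while with rescaled TPM it was 0.68 and passed. In the same mNPC nucleoplasm, the oligodendrocyte lineage markers summed to 1778 to 2250.0 CPM, against 273 to 292 on chromatin. Ntn1 moved in opposite directions, at 254, 428 and 668 CPM on chromatin, 164, 127 and 233 in the nucleoplasm and 43.7, 40.9 and 108 in the cytoplasm in mESC (log2 fold change -1.37, SE 0.29, edgeR adjusted p = 0.000188) and 152, 134 and 137 CPM on chromatin, 401, 585 and 527 in the nucleoplasm and 94.1, 90.5 and 105 in the cytoplasm in mNPC (1.84, SE 0.29, edgeR adjusted p = 3.91e-06), a pair whose difference was not tested. With TPM the mESC difference was 1.07.

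Whether the chromatin-to-cytoplasm ratio itself differed between cell types was tested as an interaction. By whole-gene counts, the ratio was lower in mCtx than in mESC for 41 members and higher for 4, against 32.5% and 17.7% of all genes. It was lower in mCtx than in mNPC for 30 and higher for 3 (21.8% and 12.2%), and lower in mNPC than in mESC for 23 and higher for 6 (23.5% and 16.7%). This direction depended on the unit and its scaling. Either way, 40.2% of all genes passed for mNPC against mESC, 34.0% for mCtx against mNPC and 50.2% for mCtx against mESC. With TPM, 27 members were higher and 11 lower in mCtx against mESC, beside 50.6% and 12.9% of all genes. Against mNPC, 31 were higher and 4 lower with TPM, beside 59.3% and 3.14%. With rescaled TPM, 20 were higher and 24 lower against mESC (39.2% and 24.2%), and 16 and 23 against mNPC (36.9% and 15.8%). With total counts, 0 were higher and 53 lower against mESC (4.0% and 60.2%). The summed Malat1, Neat1 and Meg3 also had a smaller ratio of chromatin to cytoplasm in mCtx, given above, and its part in these ratios was not tested.

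The median of all genes also moved with the scaling. For the ratio in mCtx against mESC it was -0.42 as fitted, -0.15 with median-ratio size factors, -1.43 with total counts, 0.65 with TPM and 0.23 after rescaling the TPM. The members' median was -1.37, -1.11, -2.39, 0.26 and -0.10 in the same order. It lay below the median of all genes in each of these 5, by 0.95 as fitted and by 0.39 with TPM. The number of members below the all-gene median was 53 of 68 as fitted and 41 of 65 with TPM.

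Single members differed between cell types in this ratio. Efnb3 was richer on chromatin in mESC (log2 fold change 1.25, SE 0.22, edgeR adjusted p = 1.36e-05) and richer in the cytoplasm in mCtx, with a difference of -4.47, SE 0.27, edgeR adjusted p = 1.42e-12. In mESC, Efnb3 was at 3.37, 3.97 and 3.47 CPM on chromatin, 4.60, 4.08 and 2.76 in the nucleoplasm and 1.35, 1.19 and 1.9984 in the cytoplasm, and these groups did not overlap between chromatin and cytoplasm. Plxnb2 changed in the same way, from 1.22, SE 0.16, edgeR adjusted p = 2.5e-07 in mESC to -1.11, SE 0.16, edgeR adjusted p = 6.46e-07 in mCtx, a difference of -2.33, SE 0.23, edgeR adjusted p = 5.39e-09. Plxna1 went from 1.33, SE 0.15, edgeR adjusted p = 1.26e-08 in mESC to -0.36, SE 0.15, edgeR adjusted p = 0.0295 in mCtx, a difference of -1.68, SE 0.21, edgeR adjusted p = 2.29e-07. Sema4c, Sema4g, Sema6c and Sema7a also had called fold changes of opposite sign in mESC and mCtx, with differences of -2.15, SE 0.28, edgeR adjusted p = 3.39e-07, -1.76, SE 0.28, edgeR adjusted p = 8.21e-06, -2.10, SE 0.34, edgeR adjusted p = 8.85e-06 and -1.86, SE 0.23, edgeR adjusted p = 2.31e-07. With TPM, the mCtx fold change was 1.44 for Plxnb2 and 0.80 for Plxna1, and the differences were 1.13 for Sema4c and 0.12 for Sema7a, all of the opposite sign. Those of Plxnb2 (-0.56), Sema4g (-0.16) and Sema6c (-0.32) kept their sign and lost the call. The mCtx call of Plxna1 was also lost with median-ratio size factors and without any of 3 libraries (chromatin replicates 2 and 3 and cytoplasm replicate 2). The difference for Efnb3 kept its direction and its call under every alternative run, at -1.94 with TPM.

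The Dcc ratio was higher in mNPC than in mESC (log2 fold change 3.31, SE 1.20, edgeR adjusted p = 0.0299) and lower in mCtx than in mNPC (-1.63, SE 0.29, edgeR adjusted p = 7.63e-05). The first of these rested on mESC cytoplasm near 0, and was lost without mESC cytoplasm replicate 3 (difference 2.06), without mESC cytoplasm replicate 1 (3.50) and without all 3 mESC libraries of replicate 1 (3.32). The Epha5 ratio was lower in mCtx than in mNPC (log2 fold change -1.29, SE 0.19, edgeR adjusted p = 8.55e-06). With TPM, the mCtx against mNPC difference of Dcc (-0.26) and of Epha5 (-0.38) did not pass. Unc5b was lower in mNPC than in mESC (log2 fold change -1.61, SE 0.36, edgeR adjusted p = 0.000639), and Sema4a higher (log2 fold change 1.93, SE 0.34, edgeR adjusted p = 5.72e-05), with called fold changes of opposite sign in those cell types. The Sema4a difference was -0.07 with TPM. Of the 6 members higher in mCtx than in mNPC cytoplasm without a call on chromatin, 5 passed the ratio test as lower in mCtx, a count that the choice of these 6 largely sets. For Sema3a the difference was -1.03, SE 0.22, edgeR adjusted p = 0.00051, for Sema3d -1.74, SE 0.58, edgeR adjusted p = 0.0206, for Sema4c -1.65, SE 0.20, edgeR adjusted p = 4.77e-07 and for Efna2 -1.12, SE 0.25, edgeR adjusted p = 0.00118, with Dcc given above, while Sema3b did not pass (-1.91, SE 0.75, edgeR adjusted p = 0.0509). With TPM the differences were 0.09 for Sema3a, 0.94 for Sema3d and 0.20 for Sema4c. The Sema3d call was also lost without cytoplasm replicate 1 of mNPC (difference -1.47) or of mCtx (-1.63).

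Related genes of the pathway were taken from 2 lists chosen with earlier results of these data known. Of 25 co-receptors and related guidance genes, 25 were higher and 0 lower in mCtx than in mESC cytoplasm (40.1% and 41.6% of all genes). Their median log2 fold change was 5.88. Against mNPC, 21 were higher and 4 lower (32.6% and 33.4%). Chl1, an L1-family adhesion molecule, averaged 718 CPM in mCtx and 6.29 CPM in mNPC cytoplasm (log2 fold change 6.84, SE 0.20, edgeR adjusted p = 5.95e-20). Of 50 intracellular effectors, which carry the signal to the cytoskeleton, 27 were higher and 13 lower in mCtx than in mNPC cytoplasm. The shares of all genes there are the same 32.6% and 33.4%. Dpysl5, a collapsin response mediator, averaged 485 CPM in mCtx and 15.7 CPM in mNPC (log2 fold change 4.95, SE 0.20, edgeR adjusted p = 1.79e-17).

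On chromatin over cytoplasm, 27 effectors were higher and 17 lower for mESC, beside 44.6% and 32.9% of all genes. The same counts were 27 and 12 for mNPC (37.0% and 32.5%), with 30 and 14 for mCtx (35.6% and 37.6%). In nucleoplasm over chromatin, 6 were higher and 32 lower in mESC, and 13 and 27 in mCtx. In mNPC, 11 effectors were higher and 27 lower in nucleoplasm than on chromatin, beside 32.5% and 33.5% of all genes. The members gave 37 and 13 there. By whole-gene counts, the chromatin-to-cytoplasm ratio in mCtx against mNPC was higher for 22 effectors and lower for 3, beside 12.2% and 21.8% of all genes. The members gave 3 and 30 by whole-gene counts and 31 and 4 with TPM. Counts of effectors with TPM are not given here. Enah, an actin regulator downstream of Dcc, had a ratio difference of 1.82 (SE 0.21, edgeR adjusted p = 1.98e-07). No test compared the lists with each other.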

How the data were processed

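RNA over 200 nt from chromatin, nucleoplasm and cytoplasm was depleted of ribosomal RNA and sequenced as 100 bp read pairs from stranded libraries, per the labels' protocols. The submitters' processing notes name STAR, kallisto and featureCounts with the mm10 genome, without roles or versions. The authors deposited whole-number read counts per gene over the full gene span, where the span column equals end minus start plus 1, and TPM per gene. For the chromatin columns the deposited unit was handled under the name of estimated counts, although every value was a whole number and none was rounded. Whether counting used strand is not given in the sources used here. Groups, in 3 biological replicates each, came from the sample titles, and both tables' columns were matched by title.

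Counts were fitted in edgeR 4.0.16 (R 4.3.3) with 1 mean per group over all 27 libraries, TMM scaling, the default low-count filter (18249 genes, all 68 members) and the quasi-likelihood test with Benjamini-Hochberg adjustment at 0.05 over 18249 genes. The chromatin-to-cytoplasm ratio was tested as an interaction. Alternatives were DESeq2 1.42.0, median-ratio or total-count scaling, no filter, only the compared groups, limma 3.58.1 on log2(TPM + 1) with and without rescaling each library by its median ratio, another pseudocount, no TPM filter, a replicate block and leaving out each library. Leaving out members with 3 or fewer counts was chosen after seeing the data. The fit was tested on simulated data. Gene symbols came from GENCODE vM21 and promoters from RefSeq.

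Library totals were 11249862 to 19871198 counts, and counting intervals and floors of 3 counts cover counting error only. Replicates of a group differed by more than sampling noise in every pair. Same-numbered mESC fractions deviated together, with correlations of 0.28 to 0.56 between chromatin and either other fraction. Numbers were therefore taken to pair fractions of mESC. The reported fits did not use this pairing, and the replicate block among the alternatives did. In mNPC (0.04 to 0.19) and mCtx (-0.05 to 0.08) the correlations did not meet a cut of 0.1 in every pair, and numbers were not taken to pair there. Any member may be named, and values per library are given, in the fractions described, for the 2 members of highest TPM in each family (1 in a family of 2), the 3 largest called changes each way in each comparison at 1 CPM or more, and a fixed list. The members and lists were chosen with earlier results of these data known.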

Additional observations from a re-analysis of the deposited data

Results flagged for a closer look

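The results here were marked because 2 cell types differed in the same contrast, chromatin over cytoplasm, by a test of that difference (an edgeR interaction). Past the threshold were 29 members between mNPC and mESC, 33 between mCtx and mNPC and 45 between mCtx and mESC, beside 40.2%, 34.0% and 50.2% of all genes. Their direction depends on the unit and its scaling, as given in the report.

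For mCtx against mESC, the difference was -4.47 for Efnb3, -2.33 for Plxnb2, -1.68 for Plxna1, -2.15 for Sema4c, -1.76 for Sema4g, -2.10 for Sema6c and -1.86 for Sema7a, all on the log2 scale. For mCtx against mNPC it was -1.63 for Dcc, -1.29 for Epha5, -1.03 for Sema3a, -1.74 for Sema3d, -1.65 for Sema4c and -1.12 for Efna2. For mNPC against mESC it was 3.31 for Dcc, -1.61 for Unc5b and 1.93 for Sema4a. Differences between fractions in the share of introns within a gene's counts, and the cause of the differences, were not tested.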

How the results depend on the processing

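Counts of members past the threshold stayed within 1.5 times the reported number, with the same majority, under DESeq2, median-ratio size factors, no low-count filter, the replicate block and without the 3 mESC libraries of replicate 1, in every comparison fitted. The exceptions lay with TPM, total counts, the compared groups alone and single libraries. For mNPC over mESC cytoplasm, reported as 59 (38 and 21), the count was 33 (22 higher and 11 lower) with TPM + 1, 32 (27 higher and 5 lower) with rescaled TPM and 32 (21 higher and 11 lower) with TPM + 1 unfiltered. For mNPC over mESC chromatin, reported as 58 (32 and 26), the count was 54 (22 higher and 32 lower) with TPM + 1, 55 (22 higher and 33 lower) with TPM + 0.1 and 55 (22 higher and 33 lower) with TPM + 1 unfiltered. For nucleoplasm over chromatin in mESC, reported as 49 (22 and 27), the count was 34 (20 higher and 14 lower) with the compared groups alone and 32 (15 higher and 17 lower) with rescaled TPM. For nucleoplasm over chromatin in mCtx, reported as 39 (19 and 20), the count was 40 (23 higher and 17 lower) with total counts, 43 (25 higher and 18 lower) with TPM + 1, 46 (24 higher and 22 lower) with rescaled TPM, 34 (18 higher and 16 lower) with TPM + 0.1 and 44 (25 higher and 19 lower) with TPM + 1 unfiltered. For the ratio in mCtx against mNPC, reported as 33 (3 and 30), the count was 35 (31 higher and 4 lower) with TPM + 1, 19 (12 higher and 7 lower) with TPM + 0.1 and 32 (29 higher and 3 lower) with TPM + 1 unfiltered. For the ratio in mCtx against mESC, reported as 45 (4 and 41), the count was 38 (27 higher and 11 lower) with TPM + 1, 26 (11 higher and 15 lower) with TPM + 0.1 and 38 (26 higher and 12 lower) with TPM + 1 unfiltered. Leaving out 1 library at a time gave 42 to 51 members for nucleoplasm over chromatin in mESC, where the majority turned without chromatin replicate 2 or nucleoplasm replicate 3, and kept the majority and the 1.5-fold range in all other comparisons. Spearman's rho of span with chromatin over cytoplasm fell with rescaled TPM to -0.073 in mESC, 0.28 in mNPC and 0.48 in mCtx, and leaving out members with 3 or fewer counts gave 0.77, 0.78, 0.89 in the same order. For span with nucleoplasm over chromatin, rho moved toward 0 with rescaled TPM, to -0.33 in mESC, -0.04 in mNPC and -0.23 in mCtx. Of the single changes given with their own test, 13 turned sign on a TPM scale, as log2 values: Sema5a in mCtx over mNPC chromatin at 0.41 and 0.48, Ntn1 in mNPC over mESC chromatin at 0.055, Plxnd1 in mCtx chromatin over cytoplasm at 1.17 and 0.66 and 1.22, Ntn1 in mESC nucleoplasm over chromatin at 1.07 and 0.97 and 1.21, Plxnb2 in mCtx chromatin over cytoplasm at 1.44 and 0.96 and 1.58, Plxna1 in mCtx chromatin over cytoplasm at 0.80 and 0.30 and 0.84; Sema4c in the mCtx against mESC ratio at 1.13 and 0.71 and 0.19, Sema7a in the mCtx against mESC ratio at 0.12, Sema4a in the mNPC against mESC ratio at -0.073, Sema3a in the mCtx against mNPC ratio at 0.088, Sema3d in the mCtx against mNPC ratio at 0.94 and 1.74, Sema4c in the mCtx against mNPC ratio at 0.20, Efna2 in the mCtx against mNPC ratio at 0.64. No other alternative turned a called one. Of the 13 members lower in every nucleoplasm, 1, 5 and 5 were called higher with TPM + 1 in mESC, mNPC and mCtx, and 1, 6 and 4 with rescaled TPM. Of the 13 higher in every nucleoplasm, 0, 1 and 0 were called lower with TPM + 1, and 0, 1 and 1 with rescaled TPM. The cause was not tested. Total-count scaling gave calls where none is reported for Slit3 in mCtx over mESC cytoplasm (0.50), Robo1 in mNPC over mESC cytoplasm (0.41), and Sema3a (-0.59), Sema6a (-0.72) and Sema6d (-0.51) in mCtx over mNPC chromatin. DESeq2 changed the call of 9 single changes, 7 of them gained. With the replicate block, counts of members were 59, 54, 51 for chromatin over cytoplasm in mESC, mNPC and mCtx, and 60, 55, 64 for the cytoplasmic comparisons of mNPC over mESC, mCtx over mNPC and mCtx over mESC. The block gained the call of Ntn1 in mNPC over mESC cytoplasm (0.67) and of Sema3b in the mCtx against mNPC ratio (-1.92), groups whose numbers were not taken to pair, and changed no other call. CPM are shares of a library, so a shift in a few abundant RNAs moves every value. Members with fewer than 1 CPM, such as Sema3g, Ntn5 and Robo3, rest on few counts, and genes overlapped on the opposite strand cannot be separated where the counting strand is not given.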
